A study of Homo sapiens with 12 samples.

Results

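The 7 genes described here, SREBF2, INSIG1, HMGCS1, SQLE, CYP51A1, TM7SF2 and DHCR7, belong to the making of cholesterol and its control, and were taken by gene name from a deposited table of 57773 human genes. All 7 are in the table and all 7 were among the 22831 genes with enough counts to be tested. None of them codes for a protein of cholesterol uptake, so uptake genes are given only as a list beside them. The RNA came from PANC-1, a human line established from a carcinoma of the pancreas. Cells had 24 h with both 30 nM chaetocin and 90 nM MLN8237 (the combination), with 30 nM chaetocin alone, with 90 nM MLN8237 alone, or with the DMSO vehicle, and each group has 3 libraries. Chaetocin is a fungal metabolite used as an inhibitor of histone H3 lysine 9 methyltransferases, and MLN8237 (alisertib) inhibits Aurora kinase A. In the treatment field of the combination the second compound is written with 1 digit changed, and it was taken to be MLN8237. The labels do not say whether the 3 libraries of a group are separate cultures, so every p-value measures the spread between libraries, which may be technical.

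Cells make cholesterol from acetyl-CoA through the mevalonate pathway, which ends in farnesyl diphosphate, and then through the sterol arm, which joins farnesyl units into squalene, closes the rings to lanosterol and trims lanosterol to cholesterol. The pathway is controlled by SREBP-2, the product of SREBF2, a membrane-bound transcription factor that is carried from the endoplasmic reticulum to the Golgi and cut free when sterols are scarce. INSIG proteins hold it back when sterols are plentiful, and the genes of the pathway, INSIG1 and SREBF2 itself among them, are known targets of the released factor.

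The promoters show how the 7 genes compare in the motifs this pathway is known for. Windows of 250 bases ending just before the annotated start site were read from RefSeq on GRCh38.p14, which matched 6 of the 7 genes by symbol, and are written on the strand of the gene. Capitals mark the sterol regulatory element in the form TCACNCCAC and the CCAAT box as CCAAT or, on the other strand, ATTGG. The 4 printed are SREBF2 at chr22:41832855-41833104 (plus strand), HMGCS1 at chr5:43313413-43313662 (minus strand, the upstream of its 2 windows), CYP51A1 at chr7:92134478-92134727 (minus strand) and TM7SF2 at chr11:65111622-65111871 (plus strand). SREBF2 was chosen because it alone had the sterol element in the form searched, and CYP51A1 because it alone had neither marked string. HMGCS1 and TM7SF2 stood at the ends of the range of change against vehicle with the combination and with chaetocin, described below.
SREBF2: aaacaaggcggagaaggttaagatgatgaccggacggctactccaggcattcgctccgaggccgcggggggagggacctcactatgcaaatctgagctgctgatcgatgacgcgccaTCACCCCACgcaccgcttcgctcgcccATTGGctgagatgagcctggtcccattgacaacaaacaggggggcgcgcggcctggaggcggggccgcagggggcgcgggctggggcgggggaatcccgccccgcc
HMGCS1: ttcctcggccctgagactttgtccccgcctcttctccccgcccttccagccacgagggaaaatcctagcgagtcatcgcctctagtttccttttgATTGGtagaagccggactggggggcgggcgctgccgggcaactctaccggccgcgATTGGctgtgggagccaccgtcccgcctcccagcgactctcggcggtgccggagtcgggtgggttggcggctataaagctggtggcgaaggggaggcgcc
CYP51A1: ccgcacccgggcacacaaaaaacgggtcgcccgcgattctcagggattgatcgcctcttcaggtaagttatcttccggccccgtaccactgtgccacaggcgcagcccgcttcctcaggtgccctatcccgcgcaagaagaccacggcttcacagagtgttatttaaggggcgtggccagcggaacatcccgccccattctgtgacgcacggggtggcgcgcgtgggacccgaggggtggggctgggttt
TM7SF2: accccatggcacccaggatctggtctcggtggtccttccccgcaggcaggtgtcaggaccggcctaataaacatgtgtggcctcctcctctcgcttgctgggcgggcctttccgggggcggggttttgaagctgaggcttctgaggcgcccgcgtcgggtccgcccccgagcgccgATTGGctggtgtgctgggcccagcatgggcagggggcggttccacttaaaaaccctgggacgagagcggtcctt

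Searched on both strands, TCACNCCAC was in 1 of the 6 members matched, SREBF2, from 133 to 125 bases before its start site, and in 0.883% of all 35116 windows of that length. A CCAAT box was in 5 of the 6, all but CYP51A1, and in 32.0% of all windows. The GC box GGGCGG was in 6 of the 6 and in 42.6% of all windows, and none of these 3 letter strings contains another. Counted per gene, 31 other genes of the cholesterol lists were matched, of which 0 had TCACNCCAC, 19 had a CCAAT box and 27 had a GC box. Among all 27305 symbols the shares per gene were 1.09%, 37.0% and 46.2% for TCACNCCAC, the CCAAT box and the GC box. These are matches of letters in a fixed window, and other forms of the sterol element were not searched for. HMGCS1, which was not called against vehicle, has CCAAT boxes as TM7SF2 does, and the part of the motifs in the changes was not tested.

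Library totals ran from 49439795 to 63747510 counts, and the members had between 236 counts (the lowest TM7SF2 library) and 10321 counts (the highest DHCR7 library). Levels are CPM, read counts relative to the library total after TMM scaling, and a gene was called changed at an adjusted p under 0.05 in edgeR's quasi-likelihood test with Benjamini-Hochberg adjustment over all 22831 tested genes. In a principal component analysis of all tested genes the first component (59.9% of the variance) set the 6 libraries with chaetocin apart from the 6 without. The second (14.6%) set the treated libraries numbered 3 apart, MLN8237 replicate 3 farthest. The epithelial and ductal markers listed for the line (KRT7, KRT8, KRT18, KRT19, EPCAM and CDH1) were all detected in all 4 groups, with a summed level of 1847 to 2178 CPM in the combination, 2250 to 2420 CPM in chaetocin, 4348 to 5128 CPM in MLN8237 and 4042 to 4644 CPM in vehicle. KRT8 and KRT18 carry most of that sum. Of the 6, 5 had lower means in both groups with chaetocin than in both without. The exception was KRT7, at 4.85 CPM in the combination, 5.72 CPM in chaetocin, 5.71 CPM in MLN8237 and 4.13 CPM in vehicle. The part of these markers in the members' results was not tested. Acinar and endocrine markers (4 each) stayed at or under 0.176 CPM summed in every library, with PNLIP and INS at 0 in all. The 3 endothelial markers found in the table summed to 1.40 to 4.48 CPM in the combination, 1.46 to 1.68 CPM in chaetocin, 0.0368 to 0.165 CPM in MLN8237 and 0.0715 to 0.168 CPM in vehicle. The 4 immune markers summed to 0.979 to 2.01, 0.792 to 1.28, 0.248 to 0.702 and 0.310 to 0.713 CPM in the same 4 groups, with MS4A1 at 0 in all. VWF averaged 3.04 CPM in the combination, 1.41 CPM in chaetocin, 0.0275 CPM in MLN8237 and 0 in vehicle. In the same order of groups, KDR averaged 0.355, 0.133, 0.0837 and 0.128 CPM. PTPRC averaged 0.667, 0.380, 0.0146 and 0 CPM, and CD14 0.839, 0.676, 0.437 and 0.496 CPM. With chaetocin, VWF made up most of the endothelial sum, and PTPRC and CD14 together most of the immune sum. Their part was not tested. Of the fibroblast markers only COL1A1 reached 1 CPM, and the list summed to 31.9 to 47.4 CPM in the combination, 53.6 to 61.6 CPM in chaetocin, 52.6 to 60.5 CPM in MLN8237 and 62.0 to 79.3 CPM in vehicle. Its part was not tested. In bulk RNA, fewer cells of a kind and less RNA per cell cannot be told apart.

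Most of the members were lower with chaetocin than without it, and none was called with MLN8237 alone. With the combination, 5 of the 7 were lower than in vehicle (SREBF2, SQLE, CYP51A1, TM7SF2 and DHCR7) and 0 higher, where 18.3% of all tested genes were lower and 20.1% higher. With chaetocin alone the same 5 genes were lower than in vehicle and 0 higher, against 11.9% and 12.6% of tested genes. The median log2 fold change of the 7 was -0.68 with the combination and -0.51 with chaetocin, while the median over all tested genes was 0.016 and 0.013. HMGCS1 and INSIG1 passed the test in neither. Both comparisons use the same 3 vehicle libraries, so they are not independent of each other. The 7 genes were chosen with earlier results of these data known, so the shares of all genes are no independent yardstick for them.

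**Figure D1:**
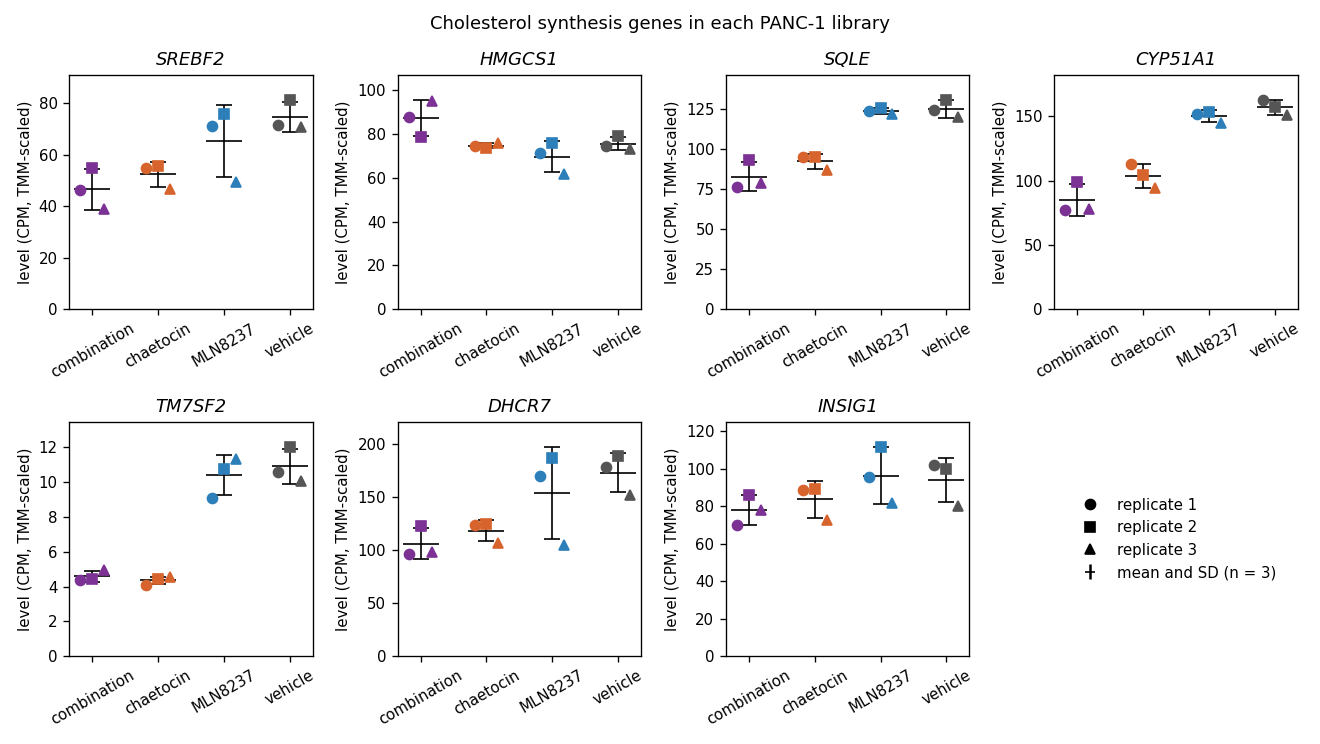
Level of each gene (CPM scaled by TMM, axes from 0) in every library of the combination, chaetocin, MLN8237 and vehicle groups; symbols mark the replicate number and black bars the mean and SD (n = 3). The 6 libraries with chaetocin lie below the 6 without it for SQLE, CYP51A1 and TM7SF2, and TM7SF2 sits at 4.10 to 4.95 CPM with chaetocin and at 9.12 to 12.04 CPM without.

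SREBF2 (ENSG00000198911, hg19 chromosome 22, 42229109 to 42303312) is the gene of the pathway's transcription factor. It had 46.1, 54.7 and 38.8 CPM in the combination libraries, 54.8, 55.7 and 46.7 CPM in chaetocin, 71.1, 75.7 and 49.4 CPM in MLN8237, and 71.5, 81.3 and 70.9 CPM in vehicle. All 6 libraries with chaetocin were below all 3 vehicle libraries, and MLN8237 replicate 3 lay among the chaetocin libraries while the other MLN8237 libraries lay among the vehicle ones. The combination was lower than vehicle by -0.68 ± 0.158 on the log2 scale (value ± SE, as throughout; edgeR, adjusted p = 0.00432). Chaetocin was lower by -0.51 ± 0.158 (edgeR, adjusted p = 0.0317), a call that did not survive leaving out any one of the 6 libraries compared (adjusted p from 0.0572 to 0.117). Without the 3 treated libraries numbered 3 it was -0.42 (edgeR, adjusted p = 0.00168). With only the chaetocin and vehicle libraries fitted it was -0.50 (edgeR, adjusted p = 0.00172). The locus also holds MIR33A in an intron, listed at 0 to 2 counts per library, and overlaps RP5-821D11.7, which had 307 to 477 counts.

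INSIG1 (ENSG00000186480, chromosome 7, 155089486 to 155101945) codes for the anchor that retains SREBP-2 in the endoplasmic reticulum. It had 69.9, 86.1 and 78.1 CPM in the combination, 88.9, 89.4 and 72.4 CPM in chaetocin, 95.5, 112 and 81.8 CPM in MLN8237, and 102, 99.6 and 80.3 CPM in vehicle. The 4 groups overlapped, replicate 3 being the lowest in each group but the combination. The log2 difference from vehicle was -0.27 ± 0.136 with the combination (95% interval -0.561 to 0.0258; edgeR, adjusted p = 0.139) and -0.17 ± 0.136 with chaetocin (-0.462 to 0.124; edgeR, adjusted p = 0.412). The chaetocin value was -0.28 without vehicle replicate 3 and -0.082 without chaetocin replicate 3. Of the other regulators, SCAP, the escort of SREBP-2, had a log2 difference from vehicle of 0.041 ± 0.0833 with the combination and 0.082 ± 0.0833 with chaetocin. INSIG2, the second anchor, had -0.19 ± 0.115 and -0.13 ± 0.114 in the same comparisons, and none of these 4 values passed the test.

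HMGCS1 (ENSG00000112972, chromosome 5, 43289497 to 43313614), whose enzyme condenses acetyl-CoA units into HMG-CoA at the entry of the mevalonate pathway, was the one member with its highest mean in the combination. It had 88.0, 78.8 and 95.3 CPM in the combination, 74.8, 73.5 and 75.7 CPM in chaetocin, 71.4, 75.9 and 61.8 CPM in MLN8237, and 74.4, 79.1 and 73.4 CPM in vehicle. All 3 combination libraries were above the chaetocin and MLN8237 libraries, while combination replicate 2 lay within the vehicle range. The log2 difference of the combination from vehicle was 0.21 ± 0.0951 (95% interval 0.00210 to 0.413; edgeR, adjusted p = 0.103), and that of chaetocin was -0.019 ± 0.0951 (-0.224 to 0.186; edgeR, adjusted p = 0.913). The gene overlaps CTD-2636A23.2 by 1445 bases, a gene with 952 to 1351 counts against 2814 to 5652 for HMGCS1, and reads in the shared stretch cannot be told apart without strand.

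SQLE (ENSG00000104549, chromosome 8, 126010739 to 126034525) codes for squalene epoxidase, which oxidises squalene before ring closure. It had 76.4, 93.1 and 78.8 CPM in the combination, 94.8, 95.4 and 86.9 CPM in chaetocin, 124, 126 and 122 CPM in MLN8237, and 124, 131 and 120 CPM in vehicle. The 6 libraries with chaetocin, at 76.4 to 95.4 CPM, did not overlap the 6 without it, at 120 to 131 CPM. SQLE fell by 33.8% with the combination (log2 fold change -0.60 ± 0.0888; edgeR, adjusted p = 0.000232) and fell by 26.2% with chaetocin (-0.44 ± 0.0887; edgeR, adjusted p = 0.00334). No other gene of the table overlaps it.

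CYP51A1 (ENSG00000001630, chromosome 7, 91741465 to 91772266) codes for lanosterol 14-alpha-demethylase, the first enzyme to act on lanosterol. It had 77.4, 98.8 and 77.9 CPM in the combination, 112, 104 and 94.0 CPM in chaetocin, 152, 153 and 145 CPM in MLN8237, and 162, 157 and 151 CPM in vehicle. Again the libraries with chaetocin (77.4 to 112 CPM) and without it (145 to 162 CPM) did not overlap, and combination replicates 1 and 3 were the lowest of the 12. CYP51A1 fell by 46.0% with the combination (log2 fold change -0.89 ± 0.105; edgeR, adjusted p = 4.63e-05) and fell by 34.0% with chaetocin (-0.60 ± 0.104; edgeR, adjusted p = 0.00129). Its locus lies within LRRD1 for 30794 bases, and LRRD1's counts were 95.8% to 99.0% of those of CYP51A1 in every library, so the reads of the 2 genes cannot be told apart in this table. CYP51A1 also overlaps CTB-161K23.1 by 8349 bases, a gene with 10 to 53 counts. The 3 CYP51A1 pseudogenes listed had at most 57, 99 and 5 counts.

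TM7SF2 (ENSG00000149809, chromosome 11, 64879317 to 64883856) codes for a sterol C14-reductase that acts on the product of CYP51A1. Of the 7 genes it had the largest fold changes against vehicle with the combination and with chaetocin. It had 4.36, 4.42 and 4.95 CPM in the combination, 4.10, 4.404 and 4.54 CPM in chaetocin, 9.12, 10.7 and 11.3 CPM in MLN8237, and 10.6, 12.04 and 10.1 CPM in vehicle. The combination and chaetocin libraries lay together at less than the lowest MLN8237 or vehicle library. TM7SF2 fell by 58.0% with the combination (log2 fold change -1.25 ± 0.1247; edgeR, adjusted p = 1.41e-05) and fell by 60.1% with chaetocin (-1.33 ± 0.12504; edgeR, adjusted p = 1.61e-05). It overlaps VPS51 by 16 bases. VPS51, a subunit of a tethering complex of the Golgi, averaged 27.3 ± 7.91 CPM in the combination, 36.8 ± 2.02 CPM in chaetocin, 67.3 ± 3.68 CPM in MLN8237 and 64.4 ± 2.13 CPM in vehicle (SD, n = 3 each), with log2 fold changes of -1.24 ± 0.154 and -0.81 ± 0.153 for the combination and chaetocin against vehicle.

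LBR, the nuclear lamin B receptor, is the other sterol C14-reductase of human cells and was picked out here after its values were seen. Per gene length it stood at 19.7 ± 3.66 RPKM in the combination and 23.2 ± 1.37 RPKM in vehicle (SD, n = 3 each), above TM7SF2 at 1.34 ± 0.0953 RPKM in the combination and 3.20 ± 0.299 RPKM in vehicle. Its log2 difference from vehicle was -0.23 ± 0.138 with the combination (edgeR, adjusted p = 0.207) and -0.22 ± 0.138 with chaetocin (edgeR, adjusted p = 0.277), neither of which passed the test.

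DHCR7 (ENSG00000172893, chromosome 11, 71139239 to 71163914) codes for 7-dehydrocholesterol reductase, which makes cholesterol in the last step of the pathway. It had 96.5, 123 and 97.8 CPM in the combination, 123, 124 and 107 CPM in chaetocin, 170, 187 and 104 CPM in MLN8237, and 178, 188 and 152 CPM in vehicle. The libraries with chaetocin were all below the vehicle libraries, and MLN8237 replicate 3 again lay among the chaetocin libraries. The log2 fold change against vehicle was -0.71 ± 0.180 with the combination (edgeR, adjusted p = 0.00726) and -0.55 ± 0.179 with chaetocin (edgeR, adjusted p = 0.0404). The chaetocin call was lost when any library of the comparison but vehicle replicate 3 was left out (adjusted p from 0.0724 to 0.134). The difference stood at -0.47 (edgeR, adjusted p = 0.00304) without the 3 treated libraries numbered 3. With only the chaetocin and vehicle libraries fitted it was -0.54 (edgeR, adjusted p = 0.00149). DHCR7 overlaps RP11-660L16.2, which had 146 to 192 counts.

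**Figure D2:**
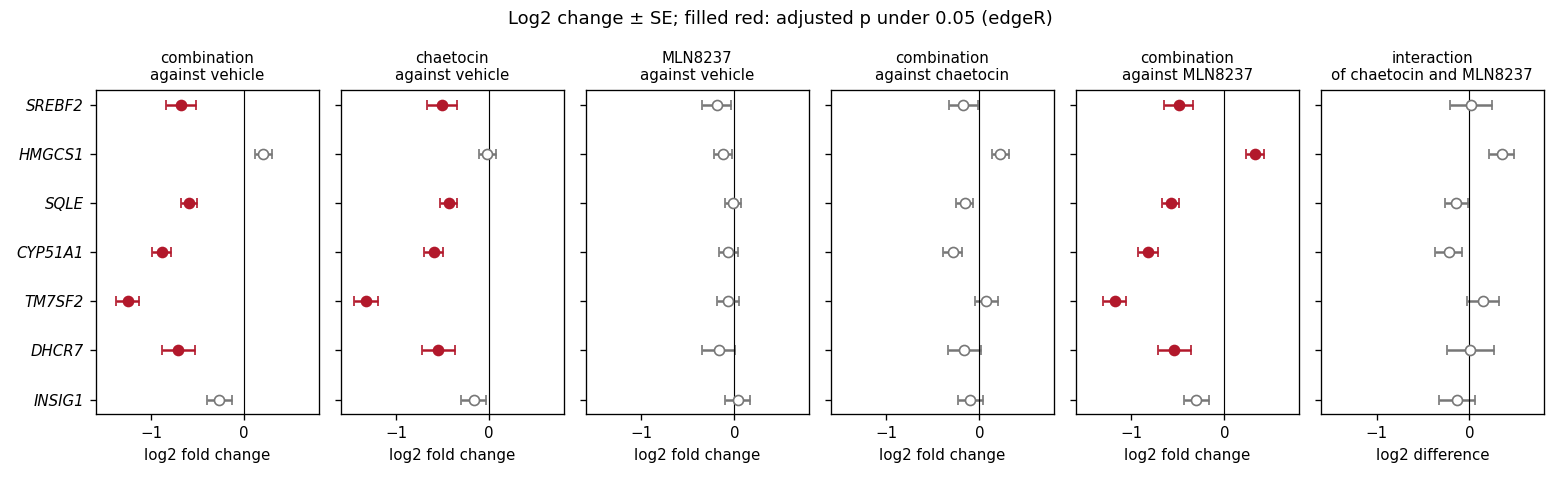
Log2 fold change ± SE of the 7 genes in each of the 6 comparisons (horizontal axis, log2 scale, shared between panels; the last panel is the interaction), with filled red points for an adjusted p under 0.05. TM7SF2 lies at -1.25, -1.33 and -1.18 in the panels that set chaetocin-treated against other cells, and all 7 points are open for MLN8237 against vehicle, for the combination against chaetocin and for the interaction.

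MLN8237 alone against vehicle asks what the Aurora inhibitor does by itself. 0 of the 7 members were called in either direction, where 0% of tested genes were lower and 0.00438%, which is 1 gene, higher. At an unadjusted p under 0.05 edgeR had 1938 genes and 0 members, and DESeq2 and limma-voom also called 1 gene and 0 members. The differences lay between -0.19 ± 0.157 for SREBF2 and 0.036 ± 0.136 for INSIG1. The 95% intervals bound them unevenly: that of SQLE ran from -0.207 to 0.175 and that of CYP51A1 from -0.290 to 0.159, while that of DHCR7 ran from -0.556 to 0.217 and that of SREBF2 from -0.529 to 0.1503. The chaetocin differences of DHCR7 (-0.55) and SREBF2 (-0.51) lie inside those wider intervals, so falls of that size with MLN8237 lie within what these libraries allow.

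The combination against chaetocin asks what MLN8237 added to chaetocin. 0 of the 7 members were called, where 0% of tested genes were lower and 0% higher. At an unadjusted p under 0.05 edgeR had 2677 genes, with CYP51A1 and HMGCS1 the 2 members among them, while limma-voom called 1 gene and DESeq2 296 genes, with 0 members in either. CYP51A1 averaged 84.7 ± 12.2 CPM in the combination and 104 ± 9.24 CPM in chaetocin (SD, n = 3 each), a log2 difference of -0.29 ± 0.104 (edgeR, adjusted p = 0.312). Without combination replicate 2, the highest of its group, the difference was -0.42 (edgeR, adjusted p = 0.0385) and 573 genes passed. HMGCS1 averaged 87.4 ± 8.27 CPM in the combination and 74.7 ± 1.14 CPM in chaetocin, a log2 difference of 0.23 ± 0.0950 (edgeR, adjusted p = 0.386). For TM7SF2 the difference was 0.074 ± 0.1254 with a 95% interval from -0.197 to 0.345.

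The combination against MLN8237 asks what chaetocin added. 5 of the 7 members were lower (SREBF2, SQLE, CYP51A1, TM7SF2 and DHCR7) and 1 higher (HMGCS1), where 22.7% of tested genes were lower and 23.3% higher, and the members' median log2 fold change was -0.54 against 0.031 over all tested genes. TM7SF2 averaged 4.58 ± 0.325 CPM in the combination and 10.4 ± 1.14 CPM in MLN8237 (log2 fold change -1.18 ± 0.1248; edgeR, adjusted p = 2.07e-05). CYP51A1 stood at -0.82 ± 0.105 (edgeR, adjusted p = 7.3e-05) and SQLE at -0.58 ± 0.0888 (edgeR, adjusted p = 0.000255). HMGCS1 averaged 87.4 ± 8.27 CPM in the combination and 69.7 ± 7.20 CPM in MLN8237, a log2 fold change of 0.33 ± 0.0952 (edgeR, adjusted p = 0.0135) that missed the threshold without combination replicate 3 (0.26, adjusted p = 0.0582) and without the 3 treated libraries numbered 3 (0.19, adjusted p = 0.0598). SREBF2 (-0.49 ± 0.158; edgeR, adjusted p = 0.0219) and DHCR7 (-0.54 ± 0.180; edgeR, adjusted p = 0.0256) had SDs of 14.1 and 43.6 CPM in MLN8237. Both calls were lost without combination replicate 1, combination replicate 3, MLN8237 replicate 1 or MLN8237 replicate 2, with adjusted p from 0.06 to 0.1 for SREBF2 and from 0.0697 to 0.123 for DHCR7. INSIG1 fell short at -0.30 ± 0.136 (edgeR, adjusted p = 0.0842) and passed without MLN8237 replicate 3 (-0.42, adjusted p = 0.0157).

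The interaction, which subtracts the 2 single-compound log2 changes from that of the combination, was called for 0 of the 7 members, where 0% of tested genes were negative and 0% positive. At an unadjusted p under 0.05 edgeR had 3108 genes and 1 member, HMGCS1, limma-voom called 0 genes and DESeq2 15 genes, with 0 members in either. HMGCS1 had the largest interaction of the 7, 0.35 ± 0.135 (95% interval 0.0549 to 0.636; edgeR, adjusted p = 0.362), and CYP51A1 the most negative, -0.22 ± 0.147 (-0.541 to 0.0943; edgeR, adjusted p = 0.464). SREBF2 and DHCR7 were close to 0 (0.018 and 0.0081), with intervals from -0.463 to 0.498 and from -0.539 to 0.555.

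Levels per gene length put the 7 genes on 1 scale (RPKM, from the TMM-scaled CPM and the length in the table). In vehicle the order was DHCR7 at 41.5 ± 4.48, CYP51A1 at 38.5 ± 1.42, SQLE at 29.1 ± 1.25, INSIG1 at 25.7 ± 3.26, HMGCS1 at 16.1 ± 0.649, SREBF2 at 9.90 ± 0.775 and TM7SF2 at 3.20 ± 0.299 RPKM (SD, n = 3 each). DHCR7 and CYP51A1 overlapped between libraries there, as did SQLE and INSIG1. Since reads of CYP51A1 and LRRD1 cannot be told apart, the CYP51A1 level in each group may include reads of LRRD1. In the combination the order was DHCR7 at 25.4 ± 3.52, INSIG1 at 21.4 ± 2.22, CYP51A1 at 20.8 ± 2.99, SQLE at 19.2 ± 2.10, HMGCS1 at 18.6 ± 1.76, SREBF2 at 6.18 ± 1.06 and TM7SF2 at 1.34 ± 0.0953 RPKM. There each of the first 5 overlapped the next, so their order is not resolved. The first gene's mean was 1.37 times that of the fifth in the combination, 1.79 times in chaetocin, 2.49 times in MLN8237 and 2.58 times in vehicle.

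**Figure D3:**
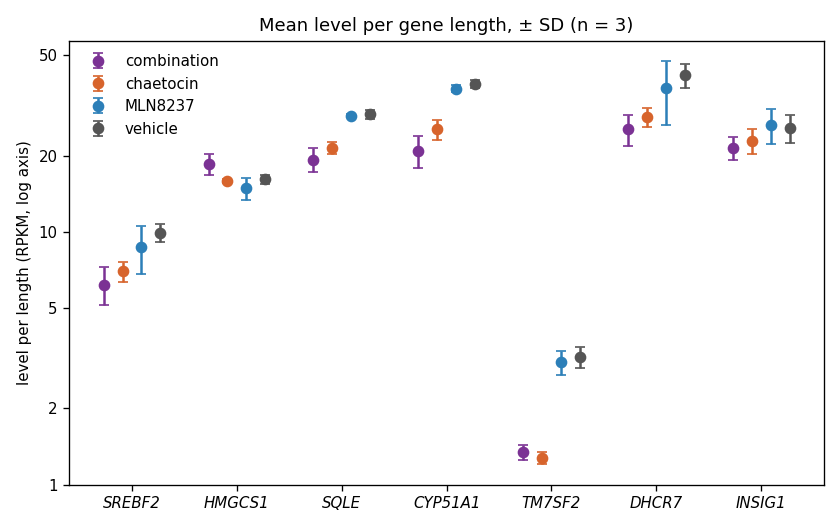
Mean level per gene length (RPKM, log axis) ± SD (n = 3) of each gene in the combination, chaetocin, MLN8237 and vehicle groups. The 5 more abundant genes lie between 18.6 and 25.4 RPKM in the combination and between 16.1 and 41.5 RPKM in vehicle.

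The other genes of the pathway were taken as role lists, which were also chosen with earlier results of these data known. Of the 18 other genes of the mevalonate and sterol arms, all tested, 9 were lower with the combination and 8 with chaetocin, and 0 were higher in either, with median log2 fold changes of -0.28 and -0.30. Over all tested genes 18.3% were lower and 20.1% higher with the combination, and 11.9% lower and 12.6% higher with chaetocin. Among the 8 that were lower with chaetocin were MVK, MVD, FDPS, FDFT1, LSS, MSMO1 and C14orf1. MVD, the mevalonate diphosphate decarboxylase, stood at -0.71 and -0.61, MVK, the mevalonate kinase, at -0.48 and -0.46, and FDPS, which makes farnesyl diphosphate, at -0.66 and -0.49, for the combination and chaetocin against vehicle, all past the threshold. With MLN8237 alone 0 of the 18 were called and their median was 0.079. Against MLN8237, the combination had 12 of the 18 lower and 0 higher, with a median of -0.55, where 22.7% of tested genes were lower and 23.3% higher.

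The counts of the remaining lists stand beside the same shares of all tested genes, 18.3% lower and 20.1% higher with the combination and 11.9% lower and 12.6% higher with chaetocin. The regulator list of 9 genes had 4 lower with the combination and 2 with chaetocin, SREBF2 among them in both. The uptake and transport list, with 9 of 10 genes tested, had 5 lower and 1 higher with the combination and 4 lower and 0 higher with chaetocin. Among them LIPA, the lysosomal acid lipase that frees cholesterol from its esters, had log2 fold changes of -1.29 ± 0.147 and -1.26 ± 0.147, and SCARB1, the HDL receptor, of -0.73 ± 0.0995 and -0.47 ± 0.0991. The export, storage and oxysterol list, with 7 of 8 tested, had 2 lower and 3 higher with the combination and 1 lower and 3 higher with chaetocin. ABCA1, the cholesterol exporter of the plasma membrane, averaged 6.23 ± 1.498 CPM in the combination, 4.85 ± 0.843 CPM in chaetocin, 1.49 ± 0.159 CPM in MLN8237 and 2.01 ± 0.168 CPM in vehicle (SD, n = 3 each), with log2 fold changes of 1.63 ± 0.196 and 1.27 ± 0.195 against vehicle. CYP27A1, a sterol 27-hydroxylase, stood at 0.64 and 0.59, and NR1H2, the oxysterol receptor LXR-beta, at 0.57 and 0.56. These 3 are the higher genes of that list, and its lower genes are not named.

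The related fatty acid arm, 9 genes all tested, had 5 lower and 1 higher with the combination and 4 lower and 1 higher with chaetocin, with medians of -0.45 and -0.38. The share of all tested genes called higher was 20.1% with the combination and 12.6% with chaetocin, and the share called lower 18.3% and 11.9%. SREBF1, the gene of the sister factor that drives fatty acid synthesis, averaged 47.1 ± 9.25 CPM in the combination, 53.0 ± 7.82 CPM in chaetocin, 98.1 ± 14.5 CPM in MLN8237 and 98.5 ± 11.7 CPM in vehicle (SD, n = 3 each). Its log2 fold change against vehicle was -1.07 ± 0.159 with the combination (edgeR, adjusted p = 0.000233) and -0.89 ± 0.158 with chaetocin (edgeR, adjusted p = 0.00145). ACSS2, which makes acetyl-CoA from acetate, stood at -0.45 and -0.38, and ELOVL6, a fatty acid elongase, at 0.66 and 0.63. With MLN8237 alone 0 genes of any of these lists were called.

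To see which genes have a like profile, the root mean square difference of log2 CPM over the 12 libraries, each gene centred on its own mean, was taken against 12587 other genes with a mean of at least 5 CPM. It is a description over libraries that share their groups. Among the members, SREBF2 and DHCR7 were nearest to each other (0.0875 log2 units), with 19 other genes nearer to SREBF2 and 2 nearer to DHCR7. Both were lowest of the MLN8237 group in replicate 3, at -0.59 and -0.72 log2 units from the vehicle mean. The part of that library in their likeness was not tested. SQLE and CYP51A1 were each other's nearest member too (0.123), but 584 other genes were nearer to SQLE and 181 nearer to CYP51A1. HMGCS1 had no close member: INSIG1 was its nearest at 0.275, and 6377 of the 12587 genes were nearer. The nearest gene outside the members was RBFOX2 for SREBF2 (0.0521), TWF1 for HMGCS1 (0.0532), TFDP2 for SQLE (0.0382) and USP11 for INSIG1 (0.0841). For CYP51A1 it was LRRD1 (0.0112), with which it shares its locus, and for TM7SF2 it was PCDHA3 (0.0898), one of a cluster of protocadherin genes that share their last exons.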

How the data were processed

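RNA of PANC-1 cells was sequenced in 4 groups of 3 libraries. Per the submitters' processing notes, which give no role or order, the tools were CASAVA 1.9, TopHat 12.0.6 and HTSeq and the build was hg19. If strand was used in counting, the sources used here do not give it. The authors deposited raw counts per gene and library, per the file headers, together with RPKM values, gene positions and a gene length. The deposited RPKM values were not tested. RPKM as printed was computed from TMM-scaled CPM and the deposited length.

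Counts were fitted with edgeR 4.0.16 in R 4.3.3: default expression filter by group, TMM, 4 group means over all 12 libraries, robust quasi-likelihood F test, Benjamini-Hochberg adjustment over all 22831 tested genes, with 0.05 as the threshold on the adjusted p. The biological coefficient of variation common to all genes was 0.155. Intervals of log2 fold changes are at 95% and come from the fit. The steps were tested on simulated data. Between replicates, counts differed by more than sampling noise (chi-square per gene from 5.74 to 126), so no library was counted as a copy of another. Alternatives were RLE scaling, no filter (any gene with at least 1 count), a stricter filter (6 or more libraries reaching 1 CPM), limma-voom (limma 3.58.1), DESeq2 1.42.0, a fit of only the groups compared, a replicate block, and leaving out libraries. Log2 CPM for profiles used a prior count of 2.

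The members and lists were chosen with earlier results of these data known. The text names all members, up to 3 called genes per role list with the smallest p for chaetocin against vehicle, genes that overlap a member, and for each member the non-member of nearest profile. Other genes are named where a count of 8 or fewer is spelled out or where the text says so. Some genes that this rule names are not reported here. Promoter sequences are RefSeq's on GRCh38.p14, and positions of genes are those of the deposited table on hg19.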

Additional observations from a re-analysis of the deposited data

How the results depend on the processing

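The falls of SQLE, CYP51A1 and TM7SF2 with the combination against vehicle, with chaetocin against vehicle and with the combination against MLN8237 kept their direction and passed the threshold under every alternative run, and those of SREBF2 and DHCR7 with the combination against vehicle did too. Leaving out 1 library at a time, the number of members called ranged from 3 to 4 for chaetocin against vehicle (5 with all libraries), where 3704 to 4705 genes were called in all (5591 with all libraries). It ranged from 3 to 7 for the combination against MLN8237 (6), where 7659 to 10542 genes were called in all (10487 with all libraries). For the combination against chaetocin it ranged from 0 to 1 (0), where 0 to 573 genes were called in all (0 with all libraries). Fitting only the groups compared left 3 members for the combination against MLN8237, where 7245 genes were called in all. The same kind of fit for chaetocin against vehicle kept the calls of SREBF2 and DHCR7, where 7657 genes were called in all. For chaetocin against vehicle, DHCR7 missed the threshold with no filter (adjusted p = 0.0579 in edgeR) and with the stricter filter (adjusted p = 0.053 in edgeR). With the combination against vehicle, HMGCS1 passed under the stricter filter at 0.28 (adjusted p = 0.0333 in edgeR).

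The libraries were not taken as paired by number, since same-numbered libraries of different groups did not all have a correlation of deviations above 0.1 (from -0.153 to 0.462). The treated libraries numbered 3 did deviate together (0.436 to 0.462), as did those numbered 1 (0.167 to 0.318), and 7 of the 12 libraries were closest to one of their own number. With the number as a replicate block, 6 members were called for the combination against vehicle, 5 for chaetocin against vehicle and 7 for the combination against MLN8237. Over all genes the block raised the calls to 10024, 6798 and 11768 in these comparisons, against 8780, 5591 and 10487 without it. The gene gained was INSIG1, at -0.26 (adjusted p = 0.0459 in edgeR) against vehicle and -0.29 (adjusted p = 0.0239 in edgeR) against MLN8237. For chaetocin against vehicle the block gave -0.51 for SREBF2 (adjusted p = 0.00187 in edgeR) and -0.54 for DHCR7 (adjusted p = 0.00466 in edgeR).

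Signs turned only for differences that passed in no setting. HMGCS1 with chaetocin stood at 0.018 under the stricter filter, and from -0.045 to 0.012 with a library left out. For MLN8237 against vehicle, leaving out a library gave -0.34 to 0.044 for DHCR7, -0.14 to 0.012 for TM7SF2, -0.050 to 0.016 for SQLE and -0.088 to 0.14 for INSIG1. DHCR7 stood there at 0.046 without the 3 treated libraries numbered 3. The interaction of SREBF2 was -0.011 with no filter and -0.11 without those 3 libraries, and from -0.16 to 0.14 with a library left out. That of DHCR7 was -0.020, -0.22 and from -0.22 to 0.18 under the same settings.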
